A study of Homo sapiens with 12 samples.

Results

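UNC13A, APCDD1L and PLAC8 are 3 of the 58051 genes listed in the count and TPM tables of RNA sequencing from MDA-MB-231, a triple-negative breast cancer cell line. They were chosen by symbol, for their large log2 fold changes in the double knockdown of NELFA and YAP1 against siControl, so their values in that comparison are a description and carry no test here. Cells received an siRNA pool against NELFA (siNELFA), a pool against YAP1 (siYAP), both pools together (siNELFA+siYAP, the double knockdown) or a non-targeting pool labelled as scrambled (siControl), with 3 libraries in each group. All groups were transfected at 50 to 100 nM of siRNA. The labels give harvests at 48 h and 72 h without saying which library had which, and the methods of the study give 72 h for the sequencing. The comparisons below ask how large the change of each gene was in each single knockdown, how the double knockdown stood against both, and how far the answer rested on the libraries whose names carry N1.

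NELFA is a subunit of the negative elongation factor, which holds RNA polymerase II in a paused state shortly downstream of the transcription start. YAP1 is a transcriptional coactivator of the Hippo pathway that reaches DNA mainly through TEAD factors, and TEAD and AP-1 sites often lie near each other in the regulatory DNA of its targets. UNC13A is best known as a presynaptic protein that primes synaptic vesicles for fusion. APCDD1L is a relative of APCDD1, a membrane protein that inhibits Wnt signalling. PLAC8 encodes a small cysteine-rich protein first described in placenta and is expressed in several blood cell types and epithelial tumours.

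Both targeted mRNAs were low in the groups given their siRNA. On the CPM scale, which is the read count scaled to library size with TMM factors, NELFA averaged 26.9, 8.71, 27.1 and 7.09 over siControl, siNELFA, siYAP and the double knockdown. YAP1 averaged 272.5, 264.3, 43.1 and 41.7 CPM in that order. The libraries held 9608145 to 18803104 counts. The line's defining markers VIM, CD44, AXL, FN1, MSN and CAV1 summed to 5310 to 6689 CPM, while ESR1 averaged at most 0.187 CPM in a group. Of the other markers expected to be low, ERBB2 averaged 48.6 to 67.5 CPM and CDH1 0.443 to 15.9 CPM over the groups. The replicate 1 libraries of siControl, siNELFA and siYAP, named N1, stood apart from replicates 2 and 3. MALAT1 took 3.14% to 4.41% of their counts, and no gene took more than 1.39% in any of the other 9 libraries. The double knockdown libraries are titled replicates 1 to 3, but their names are N1_1, N1_2 and N1_3. The methods describe independent biological replicates. In the double knockdown the median coefficient of variation over 12971 genes was 6.22%, against 19.3% to 20.7% in the other groups. Among genes with 200 to 1000 read pairs over both libraries, the chi-square between these libraries averaged 1.38 to 1.44 per gene, where 1 is pure counting noise. The same measure was 3.58 to 5.18 between replicates 2 and 3 of the other groups and 22.7 to 29.7 between replicate 1 and these. p-values for the double knockdown rest on a spread per gene estimated over all groups compared. The small spread between these libraries, which may be technical, enters that estimate.

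UNC13A (ENSG00000130477) lies on the minus strand at chr19:17601336-17688365 (GRCh38, GENCODE 44). It was counted at 4.98, 3.85 and 6.16 CPM in siControl replicates 1 to 3. The siNELFA libraries had 7.22, 2.88 and 10.98 CPM. The siYAP libraries had 7.50, 4.14 and 13.07 CPM. In both single knockdowns replicate 2 was the lowest and replicate 3 the highest, and replicate 2 of siNELFA lay below every siControl library. The double knockdown libraries had 15.40, 15.03 and 14.79 CPM, above each of the 9 others. Over 12971 genes averaging at least 50 counts, 18% lay wholly above siControl in this way, 7.39% above siNELFA and 15.6% above siYAP. The means were 5.00 ± 1.15, 7.03 ± 4.05, 8.24 ± 4.51 and 15.07 ± 0.306 CPM (SD, n = 3 each). UNC13A was the least counted of the 3 genes, with 46 to 119 counts in siControl and 186 to 275 in the double knockdown. Its coefficient of variation of 2.03% in the double knockdown was smaller than the 6.75% that counting gives if each count is an independent read. Most read pairs appear to have entered as 2 reads, so the counting error is larger than that.

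The start region of UNC13A is shown because a paused polymerase stands just after the start, the step at which NELFA acts. The window runs from 250 bases before to 50 bases after the start in RefSeq's GRCh38 annotation, chr19:17688305-17688604 on the minus strand.
UNC13A: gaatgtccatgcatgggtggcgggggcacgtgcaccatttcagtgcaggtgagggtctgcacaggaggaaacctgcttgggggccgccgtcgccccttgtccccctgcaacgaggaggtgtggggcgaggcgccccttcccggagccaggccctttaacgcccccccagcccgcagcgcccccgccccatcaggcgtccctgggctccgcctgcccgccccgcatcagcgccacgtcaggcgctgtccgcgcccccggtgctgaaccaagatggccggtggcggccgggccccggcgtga
It was 73% G and C with 28 CpG dinucleotides, against a median of 58.7% over 35116 windows of this length. It held none of the 4 motifs searched on both strands. These were the TEAD core GGAATG, found in 14.0% of all windows, the AP-1 site TGANTCA in 7.71%, TATAAA in 11.5% and CCAAT in 34.6%.

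APCDD1L (ENSG00000198768) lies on the minus strand at chr20:58459101-58515399. It had 45.7, 49.8 and 51.3 CPM in siControl, a tight group. The siNELFA libraries had 70.4, 76.6 and 80.7 CPM, all above siControl. The siYAP libraries had 86.8, 52.1 and 75.4 CPM, also all above siControl, with replicate 2 only just outside it. The double knockdown libraries had 111.6, 97.6 and 99.2 CPM and overlapped no other group. The means were 48.9 ± 2.89, 75.9 ± 5.18, 71.4 ± 17.6 and 102.8 ± 7.65 CPM (SD, n = 3 each). A group lying wholly above siControl was found for 7.19% of the 12971 genes in siNELFA and for 4.06% in siYAP.

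PLAC8 (ENSG00000145287) lies on the minus strand at chr4:83090048-83137075. It had 116.6, 75.9 and 62.3 CPM in siControl. The siNELFA libraries had 57.3, 42.2 and 25.4 CPM, all below siControl. The siYAP libraries had 93.5, 60.8 and 46.5 CPM and overlapped siControl. In each of these groups the N1 library was the highest and replicate 3 the lowest. The double knockdown libraries had 24.1, 26.1 and 26.0 CPM, which took in replicate 3 of siNELFA and lay below all siControl and siYAP libraries. The means were 84.9 ± 28.3, 41.6 ± 15.9, 66.9 ± 24.1 and 25.4 ± 1.15 CPM (SD, n = 3 each). A group lying wholly below siControl was found for 6.4% of the 12971 genes in siNELFA and for 15.9% in the double knockdown, and 13.9% lay wholly below siYAP there.

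**Figure D1:**
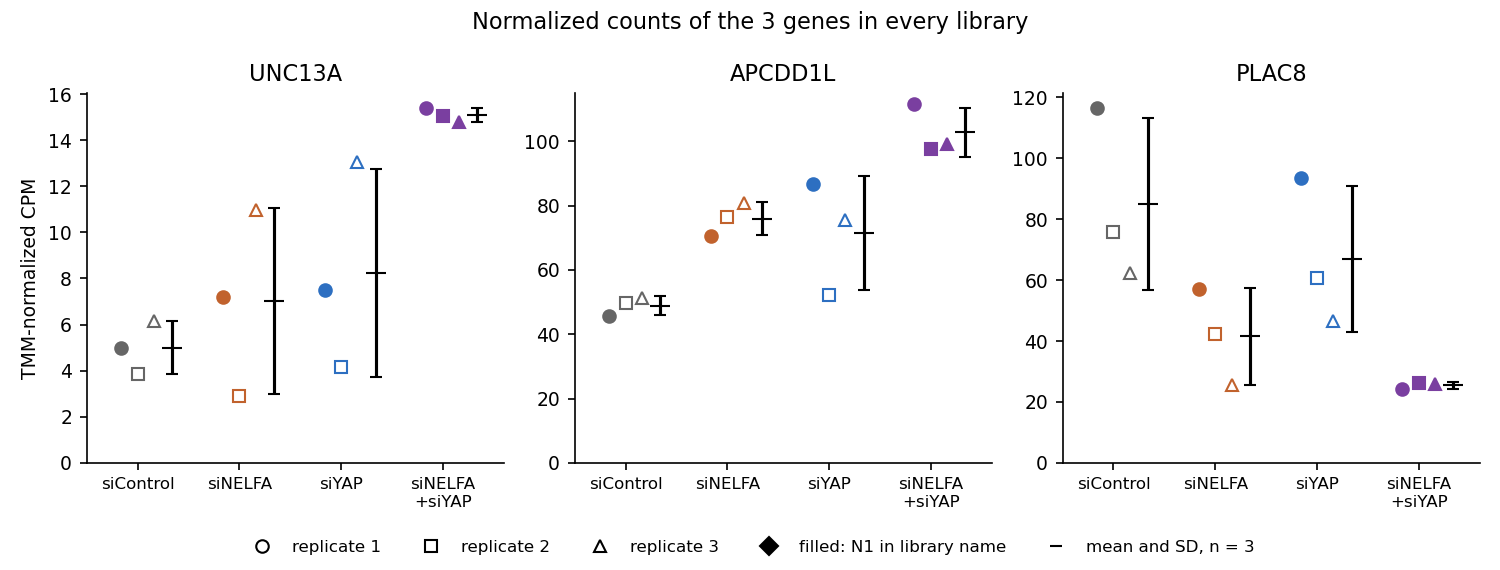
TMM-normalized CPM of UNC13A, APCDD1L and PLAC8 (y axes, linear, from 0) in the 12 libraries by group, with the mean and SD of 3 libraries as a bar and filled symbols for libraries with N1 in their name. UNC13A and APCDD1L were highest in the double knockdown, at 14.79 to 15.40 and 97.6 to 111.6 CPM, while its 24.1 to 26.1 CPM of PLAC8 included the lowest siNELFA library.

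RefSeq lists 2 start sites for PLAC8, and their windows are shown beside each other because they differ in composition. Capitals mark CCAAT, the only one of the 4 motifs found in either window.
PLAC8, start 1: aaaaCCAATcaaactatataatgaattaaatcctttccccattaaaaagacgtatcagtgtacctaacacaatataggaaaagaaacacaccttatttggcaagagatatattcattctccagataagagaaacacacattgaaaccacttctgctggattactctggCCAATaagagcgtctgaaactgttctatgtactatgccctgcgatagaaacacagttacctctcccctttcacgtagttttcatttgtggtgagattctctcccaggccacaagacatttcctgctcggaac
PLAC8, start 2: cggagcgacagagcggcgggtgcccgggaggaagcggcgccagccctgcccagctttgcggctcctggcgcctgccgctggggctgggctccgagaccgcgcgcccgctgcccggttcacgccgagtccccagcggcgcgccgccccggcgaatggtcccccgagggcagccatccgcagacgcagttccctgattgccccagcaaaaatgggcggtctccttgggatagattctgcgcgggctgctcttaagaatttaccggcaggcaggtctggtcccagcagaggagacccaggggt
The first window, chr4:83114680-83114979 on the minus strand, was 39% G and C and held CCAAT at 246 and 82 bases before the start. The second, chr4:83109840-83110139 on the same strand, was 70.7% G and C and held none of the 4 motifs. The files give counts per gene, so the share of reads from each start was not measured.

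In the comparison by which the genes were chosen, double knockdown against siControl, the log2 fold changes were 1.58 for UNC13A, 1.06 for APCDD1L and -1.75 for PLAC8, with standard errors of 0.22, 0.12 and 0.24. They come from edgeR's quasi-likelihood fit on 6 libraries. At an adjusted p under 0.05 (Benjamini-Hochberg), 0.428% of 17533 tested genes passed there, 21 higher and 54 lower. Among these, UNC13A had the second highest log2 fold change, APCDD1L the fifth highest and PLAC8 the fifth lowest. Over all tested genes, 97 had a larger change in the same direction than UNC13A, 346 than APCDD1L and 160 than PLAC8, of which 14, 94 and 81 averaged at least 50 counts. All 3 genes passed in this fit, and in other settings all, 1 or none of them did. Since this comparison chose the genes, none of these calls is read as a test. Genes just inside the threshold were RNF168, MXD4 and CUL2, with log2 fold changes of -0.74, 0.83 and -0.71. Those just outside were G3BP2, PLAUR and FAM169A, at -1.18, 1.24 and -1.30.

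The siNELFA pool alone gave log2 fold changes of 0.49 for UNC13A (SE 0.49), 0.63 for APCDD1L (SE 0.15) and -1.03 for PLAC8 (SE 0.35) against siControl. Their 95% intervals were -0.64 to 1.63, 0.28 to 0.99 and -1.85 to -0.21. This comparison shares the siControl libraries with the one that chose the genes. In the fit without a block none of the 3 passed an adjusted p of 0.05, as against 0.00564% of 17727 genes (edgeR). DESeq2 passed none either, and 2 of the 3, APCDD1L and PLAC8, had an unadjusted p under 0.05 in both tools, as 4.46% of all genes did in edgeR. Since libraries of these groups pair by replicate number, the number was also fitted as a block. With it, APCDD1L rose by a log2 fold change of 0.63 (SE 0.11, adjusted p = 0.00811) and PLAC8 fell by 1.05 on the log2 scale (SE 0.12, adjusted p = 0.000803). UNC13A, at 0.36 (SE 0.27, adjusted p = 0.496), did not pass. The block raised the share of all genes that passed to 5.21%.

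The library pairs behind this differ between the genes. For APCDD1L the ratio of siNELFA to the siControl library of the same number was 1.54, 1.54 and 1.57, although the N1 libraries stood apart over the whole transcriptome. For PLAC8 the ratios were 0.491, 0.557 and 0.408, all below 1, with the lowest in replicate 3. For UNC13A they were 1.45, 0.748 and 1.78, so replicate 2 went the other way. Without siNELFA replicate 3 the UNC13A log2 fold change was 0.00, and without siNELFA replicate 2 it was 0.87.

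The siYAP pool alone gave log2 fold changes of 0.72 for UNC13A (SE 0.45), 0.54 for APCDD1L (SE 0.22) and -0.35 for PLAC8 (SE 0.33), and the 95% intervals ran from -0.32 to 1.75, from 0.02 to 1.05 and from -1.12 to 0.42. The siControl libraries are again shared with the comparison that chose the genes. None of the 3 passed the adjusted threshold in edgeR or DESeq2, against 0.00578% of 17296 genes in edgeR, and APCDD1L alone had an unadjusted p under 0.05 in edgeR, as 1.30% of all genes did. Leaving out 1 library moved UNC13A from 0.20 without siYAP replicate 3 to 1.04 without siYAP replicate 2. It moved PLAC8 from -0.05 without siControl replicate 1 to -0.67 without siYAP replicate 1, and to -0.15 without siYAP replicate 3 and -0.54 without siControl replicate 3. With the block the values were 0.62, 0.51 and -0.36 (adjusted p = 0.540, 0.525 and 0.525), and 0.0173% of genes passed. The same-number ratios of PLAC8 were close to each other, at 0.801, 0.802 and 0.746. Those of APCDD1L were 1.90, 1.05 and 1.47 and those of UNC13A 1.51, 1.07 and 2.12. Both genes thus had their smallest ratio in replicate 2.

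**Figure D2:**
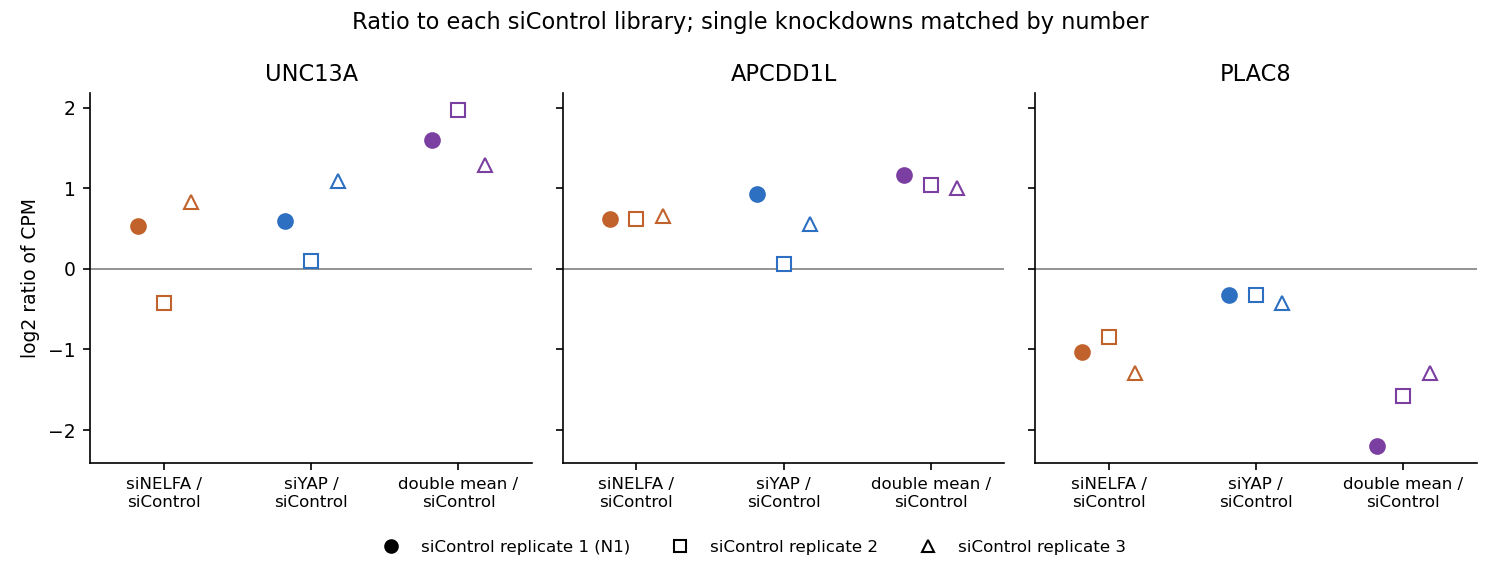
log2 ratios of CPM (y axis) of siNELFA and siYAP to the siControl library of the same replicate number, and of the double knockdown mean to each siControl library. APCDD1L ratios in siNELFA lay between 0.62 and 0.65, and those of the double knockdown for PLAC8 ran from -2.20 against the N1 library to -1.29 against replicate 3.

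Setting the single knockdowns against each other uses no library of the comparison that chose the genes. PLAC8 was 0.68 lower in siNELFA than in siYAP on the log2 scale (SE 0.36, adjusted p = 0.949) in the fit without a block, in which 0.0116% of 17257 genes passed. With the replicate number as a block PLAC8 fell by 0.69 on the log2 scale (SE 0.10, adjusted p = 4.76e-05), and 15.8% of genes passed. It was lower in siNELFA in 3 of 3 same-number pairs, by ratios of 0.612, 0.694 and 0.547. APCDD1L and UNC13A differed between the pools by 0.09 (SE 0.21) and -0.22 (SE 0.57). Their blocked values were 0.12 (95% interval -0.12 to 0.37, adjusted p = 0.530) and -0.25 (-0.68 to 0.18, adjusted p = 0.466). These intervals do not show that both pools act alike on either gene.

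Adding the YAP1 pool to the NELFA pool gave log2 fold changes of 1.10 for UNC13A (SE 0.42), 0.44 for APCDD1L (SE 0.11) and -0.71 for PLAC8 (SE 0.27) in the double knockdown against siNELFA. Adding the NELFA pool to the YAP1 pool gave 0.86 (SE 0.37), 0.52 (SE 0.19) and -1.40 (SE 0.25) against siYAP. Both comparisons share the double knockdown libraries with the one that chose the genes. None of the 3 passed the adjusted threshold in edgeR. Adjusted p was 0.735 for each gene against siNELFA, where 0.00573% of 17463 genes passed. Against siYAP it was 0.327, 0.272 and 0.123, and 0.035% of 17167 genes passed. At an unadjusted p under 0.05 edgeR had all 3 genes against siNELFA and 2 of the 3, APCDD1L and PLAC8, against siYAP, beside 6.62% and 15.5% of all genes. DESeq2 passed PLAC8 alone, against siYAP (adjusted p = 9.06e-05), together with 3.01% of its 16427 genes. The double knockdown libraries of PLAC8 averaged 0.444 and 0.602 of siNELFA replicates 1 and 2 but 1.00 of replicate 3.

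The sum of both single log2 fold changes was 1.21 for UNC13A, 1.17 for APCDD1L and -1.38 for PLAC8, beside 1.58, 1.06 and -1.75 in the double knockdown. The interaction term over all 12 libraries, which measures the departure from that sum on the log2 scale, was 0.38 (SE 0.65), -0.11 (SE 0.24) and -0.37 (SE 0.46). Its 95% intervals were -1.05 to 1.81, -0.64 to 0.42 and -1.37 to 0.64. No gene of 18525 passed (0%) in edgeR or DESeq2, and 326 genes, none of the 3 among them, had an unadjusted p under 0.05 in edgeR. For APCDD1L both single changes were of similar size, 60.0% and 50.9% of the double change in siNELFA and siYAP. For PLAC8 they were 58.7% and 20.1%. For UNC13A they were 31.3% and 45.5%, with standard errors almost as large as the siNELFA value itself.

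How far these values rested on the N1 libraries differed by gene. Without the 3 N1 libraries of siControl, siNELFA and siYAP, the double knockdown stood 1.58 above siControl for UNC13A on the log2 scale, and against the siControl N1 library alone it stood 1.60 above. For APCDD1L these values were 1.02 and 1.17. For PLAC8 they were -1.44 and -2.19, so the double knockdown had 36.8% of the PLAC8 level of siControl replicates 2 and 3 in that fit. Against siNELFA, the PLAC8 value was -0.41 without the N1 libraries (SE 0.17, adjusted p = 0.306, with 1.25% of 18286 genes passing) and -1.16 against the N1 library alone. With the N1 libraries left out of every group, the single knockdown values of PLAC8 were -1.02 in siNELFA and -0.36 in siYAP, and their sum of -1.39 lay next to the double value of -1.44. With only 1 N1 library left out they did move, to -0.73 in siNELFA and -0.05 in siYAP without that of siControl, to -1.32 in siNELFA without its own and to -0.67 in siYAP without its own. The interaction of PLAC8 without all 3 N1 libraries was -0.06 (SE 0.27, 95% interval -0.63 to 0.52).

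Against siYAP, leaving out the N1 library of siYAP (replicate 1) changed 2 calls. APCDD1L was then 0.69 higher in the double knockdown (SE 0.13, adjusted p = 0.00383) and PLAC8 1.07 lower (SE 0.12, adjusted p = 0.000186), while 16.5% of all 17773 tested genes passed. With the block but without the N1 libraries, a fit with 1 residual degree of freedom per gene and a spread drawn from all genes, APCDD1L and PLAC8 passed in siNELFA against siControl together with 15.7% of genes. PLAC8 passed in siYAP with 1.62% of genes, and both genes passed between the pools with 14.8% of genes. In the double knockdown against siYAP, PLAC8 also passed when every gene with at least 1 count was tested, as did 0.695% of genes. The APCDD1L value in siYAP against siControl went from 0.54 to 0.34 without the N1 libraries, whose pair had the largest of its 3 ratios.

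The 3 double knockdown libraries could instead be read as belonging to number 1, as their names have it. A fit over 12 libraries with the number in the library name as a block gave PLAC8 an interaction of -0.81 (SE 0.16, adjusted p = 0.000591), and 30.4% of genes passed. UNC13A and APCDD1L did not pass there, at 0.56 (adjusted p = 0.201) and -0.13 (adjusted p = 0.655). In the same fit all 3 genes passed against siNELFA, as 41.1% of genes did, and against siYAP, as 43.5% did. The effect of the number is estimated there from the other groups, and with no double knockdown library of number 2 or 3, whether it is the same in the double knockdown was not tested. With the 3 double knockdown libraries summed as 1, the log2 fold changes against siControl were 1.60, 1.07 and -1.72, with standard errors of 0.41, 0.26 and 0.46. With 1 library left in the double knockdown, no call is drawn from this fit.

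**Figure D3:**
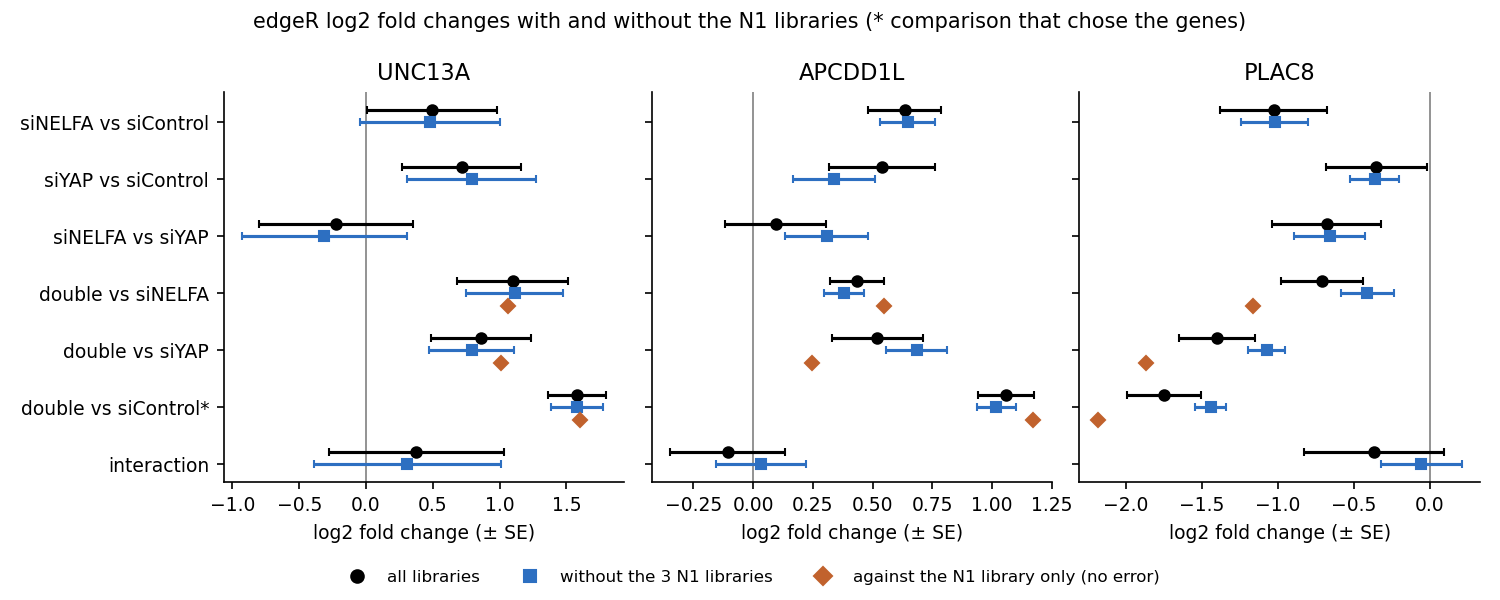
log2 fold changes (x axes, ± SE) from edgeR for 7 comparisons, with all libraries, without the 3 N1 libraries, and against the N1 library alone, which has no error. For UNC13A the double knockdown against siControl lay between 1.58 and 1.60 in all of them, and for PLAC8 it ran from -1.44 to -2.19.

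The deposited TPM values gave another picture for UNC13A. The siControl libraries had 2.04, 1.03 and 2.20 TPM and the siNELFA libraries 1.17, 1.77 and 2.70 TPM. The siYAP libraries had 2.28, 1.00 and 2.12 TPM and those of the double knockdown 2.87, 2.55 and 2.14 TPM. The double knockdown overlapped every other group on this scale. The ratio of TPM to CPM of UNC13A ranged from 0.145 to 0.614 over the libraries, and the cause was not tested. On log2(TPM + 1) by limma, the UNC13A difference was 0.38 (SE 0.27) against siControl, beside 1.58 from the counts. For APCDD1L the same scale gave 0.93 and for PLAC8 -2.03, and the double knockdown overlapped no siControl library of either. APCDD1L in siYAP, however, overlapped siControl in TPM, since its replicate 2 had 17.9 TPM beside 16.8 to 18.8 in siControl. Per length, PLAC8 had the highest level of the 3 genes in siControl at 128.0 ± 56.3 TPM, then APCDD1L at 17.96 ± 1.03 and UNC13A at 1.76 ± 0.634 TPM (SD, n = 3). In the double knockdown APCDD1L, at 35.1 ± 2.38 TPM, and PLAC8, at 28.9 ± 5.03 TPM, overlapped in their library ranges.

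**Figure D4:**
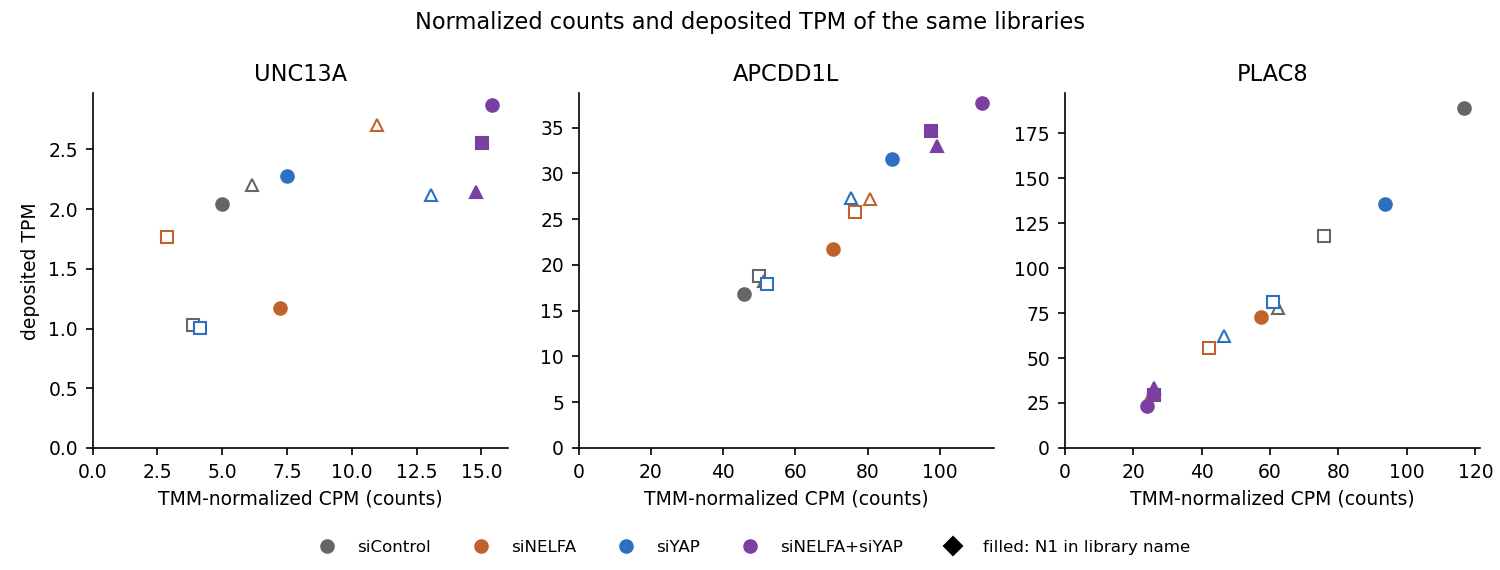
Deposited TPM (y axes) against TMM-normalized CPM (x axes) of the same 12 libraries, with filled symbols for N1 in the library name. The ratio of TPM to CPM ranged from 0.309 to 0.378 for APCDD1L, from 0.978 to 1.62 for PLAC8 and from 0.145 to 0.614 for UNC13A.

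The paralogs give the families' own background. UNC13D, which acts in granule release of blood cells, had 143.0, 178.9, 161.0 and 208.8 CPM on average in siControl, siNELFA, siYAP and the double knockdown. Its N1 library was the lowest in siControl, at 66.0 CPM against 162.6 and 200.5, and likewise in siNELFA and siYAP. UNC13B had 67.5, 53.0, 64.2 and 48.6 CPM, and UNC13C had no count in any library. Neither UNC13B nor UNC13D passed in any comparison by edgeR, with or without the block, or by DESeq2. APCDD1 had no count outside 1 double knockdown library with 4 counts, so no paralog of APCDD1L was measurable. Of the PLAC8 relatives, PLAC8L1 and CNFN had at most 14 counts in a library.

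Genes related to the members in function were described by lists, and list genes named below for passing a test were named after their values were seen. Of 35 vesicle priming and SNARE genes, 28 to 30 could be tested, depending on the comparison, and none passed an adjusted p of 0.05 in edgeR without a block. At an unadjusted p under 0.05 this list had 1 gene in siNELFA and 1 in siYAP against siControl, and DESeq2 passed none in either. With the replicate block, 3 of 29 passed in siNELFA against siControl, beside 5.21% of all genes. NSF, the ATPase that takes spent SNARE complexes apart, rose by 0.65 on the log2 scale (SE 0.12, adjusted p = 0.0118), BAIAP3, which is related to the UNC13 proteins, rose by 0.91 (SE 0.21, adjusted p = 0.0248), and RAB27B, a GTPase of secretory vesicles, fell by 0.74 (SE 0.16, adjusted p = 0.0181). None passed in siYAP with the block. Between the pools 7 of 29 were higher in siNELFA and 3 were lower, NSF and RAB27B among them, in a fit that passed 15.8% of all genes. In the double knockdown DESeq2 passed NSF alone of 27 tested against siControl and RAB27B alone of 28 against siYAP. Against siYAP it passed 3.01% of all genes, and its share against siControl is not reported here.

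The median log2 fold change of this list was 0.089 in siNELFA and -0.013 in siYAP, beside 8.0e-05 and -0.0017 over all tested genes. The most counted genes after UNC13D included STX3, a target membrane SNARE, and VAMP3, a vesicle SNARE. STX3 averaged 94.99, 118.4, 86.1 and 101.4 CPM in siControl, siNELFA, siYAP and the double knockdown. VAMP3 averaged 75.1, 97.8, 69.4 and 93.7 CPM. With the block, STX3 and VAMP3 were higher in siNELFA than in siYAP, by log2 fold changes of 0.46 and 0.49 (SE 0.09 and 0.10, adjusted p = 0.000708 and 0.000844).

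Of 29 Wnt antagonists, feedback genes and core Wnt genes, 16 could be tested, and none passed in any comparison in edgeR without a block. None had an unadjusted p under 0.05 in siNELFA or siYAP against siControl by edgeR or DESeq2, and the medians were -0.033 and 0.043. With the block, APC alone passed in siNELFA, where it fell by 0.49 on the log2 scale (SE 0.12, adjusted p = 0.0377), and between the pools 2 of the 16 were higher in siNELFA and 3 were lower, beside 5.21% and 15.8% of all genes. DKK1, a secreted Wnt antagonist, had 137.1, 140.6, 112.6 and 74.1 CPM in siControl, siNELFA, siYAP and the double knockdown. DESeq2 passed it as lower in the double knockdown against siNELFA, by 0.93 on the log2 scale (SE 0.22, adjusted p = 0.0187), against siYAP, by 0.60 (SE 0.19, adjusted p = 0.0461), and against siControl, by 0.89 (SE 0.21, adjusted p = 0.00147). DESeq2 also passed RNF43, a negative regulator of Wnt receptors, as lower against siYAP (log2 fold change -2.59, SE 0.72, adjusted p = 0.0186) and PORCN, which acylates Wnt proteins, as higher against siControl (0.72, SE 0.23, adjusted p = 0.0339). Against siYAP DESeq2 passed 3.01% of all genes, and its shares against siNELFA and siControl are not reported here. CTNNB1, which encodes beta-catenin, had 446.6, 402.9, 452.6 and 418.1 CPM in the same order. WLS, which carries Wnt proteins to the cell surface, had 88.6, 84.7, 94.7 and 108.0 CPM and APC 88.4, 63.8, 84.8 and 69.7 CPM.

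UNC13A is best known in neurons. Of 15 neuronal genes, 5 had no count in any library and 5 could be tested, of which none passed in edgeR without a block or by DESeq2. At an unadjusted p under 0.05, edgeR and DESeq2 each had 1 gene in siNELFA and 1 in siYAP against siControl. With the block, TUBB3 passed as higher in siNELFA against siControl (log2 fold change 0.55, SE 0.13, adjusted p = 0.0345), beside 5.21% of all genes. ENO2 passed as lower in siNELFA than in siYAP (-0.51, SE 0.09, adjusted p = 0.000362), beside 15.8% of all genes. ENO2, TUBB3, GAD1 and MAP2 were the most counted, at 121.5, 25.8, 19.2 and 9.83 CPM in siControl and 109.7, 38.5, 12.2 and 1.60 CPM in the double knockdown. The log2 fold change of MAP2 there was -2.59 with a wide error (edgeR, SE 1.09, adjusted p = 0.267).

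Markers of other cells were measured beside these results. The 5 blood markers summed to 89.0 to 104.6 CPM over the siControl libraries and 183.5 to 194.8 CPM over those of the double knockdown. The single knockdowns lay between them, at 146.0 to 161.5 CPM with siNELFA and 129.4 to 146.8 CPM with siYAP, the order that the APCDD1L means also had. CD68, a lysosomal protein of macrophages, made up nearly all of it, with group means of 98.2, 151.4, 136.1 and 189.7 CPM. It rose in the double knockdown against siControl by a log2 fold change of 0.94 (SE 0.11, adjusted p = 0.0317) and, with the block, in siNELFA by 0.63 (SE 0.10, adjusted p = 0.00473). The part of these markers in the results was not tested. CD3E had no count anywhere and PTPRC and LYZ averaged at most 0.210 CPM in a group. The 3 endothelial markers summed to at most 9.96 CPM and the 3 basal epithelial markers to at most 2.49 CPM in a library. The 7 markers expected to be low in this line summed to 90.8 to 97.3 CPM in siControl and 60.0 to 61.6 CPM in the double knockdown, most of it ERBB2. They summed to 74.1 to 129.2 CPM with siNELFA and 64.2 to 107.0 CPM with siYAP. CDH1, 1 of them, averaged 8.68, 15.9, 5.42 and 0.443 CPM in siControl, siNELFA, siYAP and the double knockdown. With the block CDH1 was higher in siNELFA than in siYAP by 1.69 on the log2 scale (edgeR, SE 0.32, adjusted p = 0.000699). In that fit 15.8% of all genes passed. Without the block the CDH1 difference was 1.58 (SE 2.30, adjusted p = 0.997). CDH1 had no count in 3 libraries and up to 599 in a library, so its group means can rest on single libraries. In RNA of whole cultures, fewer cells of a type and less RNA per cell cannot be told apart.

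The genes next to the members did not pass in any comparison in edgeR without a block. Beside UNC13A, COLGALT1 lies 18.2 kb away, followed by MAP1S, FCHO1 and PGLS. COLGALT1, a collagen-modifying enzyme, had 255.4, 380.7, 310.2 and 363.4 CPM in the 4 groups and FCHO1 4.88, 5.48, 5.88 and 3.53 CPM. COLGALT1 rose in siNELFA with the block (log2 fold change 0.56, SE 0.11, adjusted p = 0.0120). It was the only one of 12 neighbours tested to pass there, beside 5.21% of all genes. With the block it was also higher in siNELFA than in siYAP, by 0.31 (SE 0.08, adjusted p = 0.00684), beside 15.8% of all genes. DESeq2 passed it in the double knockdown against siControl (0.50, SE 0.16, adjusted p = 0.0325), where its share of all genes is not reported here. Beside PLAC8 lie COPS4, LIN54, COQ2 and HPSE. HPSE, which encodes heparanase, had 28.2, 35.6, 30.6 and 16.01 CPM. Beside APCDD1L lie VAPB, 8.0 kb away, RAB22A, LINC01711 and STX16, and VAPB had 93.5, 95.7, 87.1 and 116.9 CPM.

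APCDD1L-AS1 (ENSG00000231290, named APCDD1L-DT in GENCODE 44) runs on the plus strand at chr20:58515379-58619888 and overlaps the first bases of APCDD1L. The siControl libraries had 14.3, 16.02 and 15.4 CPM and the siNELFA libraries 13.0, 20.8 and 22.4 CPM. The siYAP libraries had 22.6, 15.1 and 26.2 CPM and those of the double knockdown 27.6, 26.1 and 22.5 CPM. The double knockdown lay above siControl, and both single knockdowns overlapped it. Its log2 fold changes against siControl were 0.30, 0.48 and 0.72 for siNELFA, siYAP and the double knockdown, and it passed the threshold in none by edgeR. DESeq2 passed it in the double knockdown against siControl, at 0.73 (SE 0.20, adjusted p = 0.0104), where its share of all genes is not reported here. The libraries mark strand, but the options of the counting step are not given in the sources used here, so reads of the shared stretch cannot be assigned to one of both genes with certainty.

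Genes whose pattern over the 12 libraries was most like that of each member are given as a description, by Pearson's r of log2 CPM among 12971 genes averaging at least 50 counts. The points share libraries, depth and the N1 difference. For UNC13A these included CDC42SE1 (r = 0.925) and DUSP22 (0.922). For APCDD1L they were SQSTM1 (0.960), PRDX5 (0.953) and MICAL1 (0.947). For PLAC8 they were GPD1L (0.985), LIMCH1 (0.983) and RIPK2 (0.976). LIMCH1 averaged 272.6, 152.8, 226.2 and 68.8 CPM in siControl, siNELFA, siYAP and the double knockdown. Between the members r was 0.740 for UNC13A and APCDD1L, -0.666 for UNC13A and PLAC8 and -0.767 for APCDD1L and PLAC8. The genes were chosen for their changes in the double knockdown, so these signs follow in part from the choice and are not read as a result.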

How the data were processed

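Total RNA of MDA-MB-231 cells, depleted of ribosomal RNA, was sequenced by the authors from stranded libraries in 4 groups of 3. The submitters' processing notes name FastQC, cutadapt, STAR, featureCounts, Cufflinks and DESeq2, with GRCh38 as the build. The deposited counts are reads per gene from featureCounts, without normalization. Counts of 2 were 6.66 to 8.23 times as frequent as counts of 1 in each library, and 81.8% to 84.8% of values from 1 to 10 were even, so most read pairs appear to have entered as 2 reads and counting error is larger than the counts alone give. TPM, also deposited, came from the authors' own estimate for each library. There, 94 lines that repeat a gene identifier were summed. A further 12 columns, an FPKM value for each library, were not used.

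Each comparison took the 6 libraries of its groups and was fitted by edgeR 4.0.16 in R 4.3.3 (quasi-likelihood, TMM factors, filterByExpr at 10 counts and 15 in total), with Benjamini-Hochberg adjustment over all tested genes and a threshold of 0.05. The interaction term used 12 libraries. Alternatives were DESeq2 1.42.0, RLE factors, every gene with at least 1 count, all 12 libraries in one fit, limma 3.58.1 on log2(TPM + 1) and log2(TPM + 0.1) with at least 0.1 TPM in 3 libraries, each library left out, the N1 libraries left out, and replicate blocks. Summing the double knockdown libraries as 1, and the block without the N1 libraries, were added after seeing the data. The edgeR fit without a block was tested on simulated data first, for siNELFA against siControl and for the interaction term. The simulated data held no N1 difference. The blocked fits, DESeq2 and limma were not tested in this way.

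Replicate numbers were checked as pairs. Deviations from the group mean of same-number libraries correlated by 0.642 to 0.886 across 12971 genes between any of siControl, siNELFA and siYAP. With the double knockdown they correlated by -0.0523 to 0.0256, so the numbers of the labels pair only the first 3 groups. These are correlations across genes, which are no independent replicates. The members, gene lists and tests were chosen with earlier results of these data known. Named are the members, their paralogs, NELFA and YAP1, the most counted genes of each list, genes next to the members, those most like them in pattern and those at the threshold, and a few list genes that passed. Some genes that this rule would name are not reported here. UNC13D appears as a paralog and as a list gene. Lists cover vesicle priming and SNARE genes, Wnt antagonists, PLAC8 relatives, neuronal genes and markers of the line, blood, endothelium and basal epithelium. RefSeq start windows were matched for 2 of the 3 members. Python 3.11.15 with matplotlib 3.10.9 drew the figures.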

Additional observations from a re-analysis of the deposited data

Results flagged for a closer look

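PLAC8 differed between groups by a test of the difference itself in 2 fits. With the replicate number as a block, PLAC8 differed between siNELFA and siYAP by -0.69 on the log2 scale (edgeR, SE 0.10, adjusted p = 4.76e-05), lower in siNELFA in 3 of 3 same-number pairs. In that fit 15.8% of all genes passed. Without the block the difference was -0.68 (adjusted p = 0.949). With the number in the library name as a block over 12 libraries, where 30.4% of all genes passed, the PLAC8 interaction was -0.81 (SE 0.16, adjusted p = 0.000591). It was -0.37 without a block, -0.26 with the replicate number of the labels as a block and -0.06 without the N1 libraries, none of which passed. Over all its alternatives the adjusted p of the interaction ran from 0.000591 to 1.00.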

How the results depend on the processing

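The 3 genes in 7 comparisons were recomputed under 351 alternatives in all. When the double knockdown is set against 1 other group, leaving out the N1 libraries drops only replicate 1 of that group. This fit is thus the same as leaving out that library singly, and both are counted. Of these alternatives, 310 kept direction and, where it was compared, side of the threshold. In the double knockdown against siControl, which chose the genes, only direction and size were compared. The same holds for fits against the N1 library only, which give no adjusted p. With the replicate block, 3 values passed: APCDD1L 0.63 and PLAC8 -1.05 in siNELFA against siControl, and PLAC8 -0.69 in siNELFA against siYAP. Of all genes, 5.21% passed in the former comparison and 15.8% in the latter. With this block and no N1 libraries, an alternative chosen after seeing the data with 1 residual degree of freedom, APCDD1L 0.65 and PLAC8 -1.05 in siNELFA, PLAC8 -0.37 in siYAP, and APCDD1L 0.33 and PLAC8 -0.69 between the pools passed. The shares of all genes that passed were 15.7%, 1.62% and 14.8% in that order of comparisons. The replicate block over all libraries changed no call in the other tested comparisons.

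With the number in the library name as a block, the double knockdown passed against siNELFA at 1.18, 0.39 and -1.17 for UNC13A, APCDD1L and PLAC8 and against siYAP at 0.92, 0.50 and -1.86. Of all genes, 41.1% and 43.5% passed in these comparisons. PLAC8 moved to -2.22 against siControl and passed for the interaction at -0.81, as 30.4% of all genes did. Against the N1 library only, APCDD1L moved to 0.55 against siNELFA and 1.17 against siControl, and PLAC8 to -1.16, -1.87 and -2.19 against siNELFA, siYAP and siControl. Against siYAP without the N1 libraries, APCDD1L passed at 0.69 and PLAC8 at -1.07, and PLAC8 also with every gene of at least 1 count (-1.37) and by DESeq2 (-1.40). These fits passed 16.5%, 0.695% and 3.01% of all genes. Leaving out single libraries there gave 0.34 to 0.69 for APCDD1L and -1.60 to -1.07 for PLAC8. Both passed only without siYAP replicate 1, which is the same fit as that without the N1 libraries.

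On log2(TPM + 1) and log2(TPM + 0.1), the double knockdown against siControl moved to 0.38 and 0.56 for UNC13A, and on the former to 0.93 for APCDD1L. Signs turned only for values within their error. Between the pools, UNC13A gave 0.042 and 0.068 on the TPM scales and -0.71 to 0.29 with single libraries left out, and APCDD1L -0.0053, -0.0042 and -0.085 to 0.25. The APCDD1L interaction gave 0.031 and 0.028 on the TPM scales, 0.033 without the N1 libraries and -0.29 to 0.058 with single libraries left out. The cause of these changes was not tested. UNC13A varied by 57.7% and 54.8% between libraries of siNELFA and siYAP, where counting alone gives 10.6% and 10.4%.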
